A study of Rattus norvegicus with 6 samples.

Results

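Transcripts of 8 ion pump genes were read in CD163+ macrophages of the rat brain: Atp1b1, Atp1b2 and Atp1b3, which encode beta subunits of the sodium/potassium pump, and Atp2a2, Atp2a3, Atp2b1, Atp2b4 and Atp2c1, which encode calcium pumps of the endoplasmic reticulum, the plasma membrane and the Golgi. The members were fixed by symbol, from the array probe sets annotated with exactly 1 gene, and they are 8 of the 14218 genes so named. All 8 passed the filter on low signal and are among the 9929 genes tested. Ischemic rats (64, 65 and 66) had the right middle cerebral artery closed with a filament for 1 h and were studied after 16 h of reperfusion, and control rats (63, 68 and 69) had no ischemia. All were adult male Sprague-Dawley rats, and CD11b+CD163+ cells were sorted from the right hemisphere, so each array holds a mixed population from 1 rat and there was no pooling of rats. The comparison asks how ischemia alters expression in macrophages at the borders of the brain.

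The sodium/potassium pump, or Na+/K+-ATPase, exchanges intracellular sodium for extracellular potassium at the cost of ATP and so maintains the resting gradients of the cell. Its beta subunit is a glycoprotein needed for folding and delivery of the pump to the plasma membrane. Calcium pumps keep cytosolic calcium low: SERCA pumps (Atp2a genes) fill the endoplasmic reticulum, PMCA pumps (Atp2b genes) extrude calcium from the cell and SPCA pumps (Atp2c genes) supply calcium and manganese to the Golgi. In macrophages, calcium signals follow receptor engagement and contribute to phagocytosis and migration.

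Values are log2 expression values from RMA (robust multi-array average), so that a difference of 1 is a doubling of the array signal. Each gene is read through its probe set of highest mean, and levels are compared only within a probe set. "Fell" and "rose" refer to limma's moderated test at an adjusted p under 0.01 over all genes tested. With 3 rats in each group, their number limits the precision.

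The arrays had medians of 7.82 to 7.87 in ischemic rats and 7.82 to 7.90 in controls, and arrays of 1 group were closer to each other (mean absolute difference 0.189 to 0.301) than arrays of different groups (0.379 to 0.544). Control rat 63 stood apart in its highest value, 13.88 against 14.98 to 15.03 in the other rats. The mean of 41 ribosomal protein genes was 13.33 to 13.42 in ischemic rats, against 12.52 in control rat 63 and 13.15 and 13.17 in the other controls. The 3′ minus 5′ signal of actin was 0.168 to 0.237 in ischemic rats, against 0.058 to 0.073 in controls, and that of GAPDH was 0.750 to 0.797 in ischemic rats, against 0.520 to 0.651 in controls. The part of these ratios in any difference between probe sets of 1 gene was not tested.

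In the sorted cells, 3 of the 8 pump genes fell after ischemia: Atp1b2, Atp2a3 and Atp1b1. None rose, and 5 did not pass the test (limma, Benjamini-Hochberg). Over all 9929 genes, 22.8% passed the same rule, 5.99% as lower and 16.8% as higher. At an unadjusted p under 0.05, 3 members were lower and 1, Atp2a2, was higher, where 5015 of the 9929 genes passed in either direction. Without empirical Bayes moderation of the variance, none of the 9929 genes passed at an adjusted p under 0.01 (4479 did at an unadjusted p under 0.05), and the 3 members that fell had adjusted p of 0.0166 to 0.0344. The median log2 fold change was -0.30 over the members and 0.10 over all genes tested, and when arrays were instead centred on ribosomal protein genes (ribosomal centring) these were -0.73 and -0.33. The beta subunits and the SERCA pumps each held a gene that fell by more than 2 on the log2 scale beside a gene that did not pass the test, and these 4 genes are the ones whose promoters are shown.

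Sequence upstream of the transcription start was taken from RefSeq on the GRCr8 assembly for Atp1b2 and Atp2a3, which had the largest falls, and for Atp1b3 and Atp2a2, their relatives that did not pass the test. Each run is the 250 bases before the start in the direction of the gene, 5′ to 3′, and capitals mark GC boxes (GGGCGG, or CCGCCC on the other strand), the motif bound by Sp1. The windows lie at chr10:54823709-54823958 on the minus strand (Atp1b2), chr8:105821152-105821401 on the minus strand (Atp1b3), chr10:58080402-58080651 on the plus strand (Atp2a3) and chr12:39733269-39733518 on the plus strand (Atp2a2).
Atp1b2: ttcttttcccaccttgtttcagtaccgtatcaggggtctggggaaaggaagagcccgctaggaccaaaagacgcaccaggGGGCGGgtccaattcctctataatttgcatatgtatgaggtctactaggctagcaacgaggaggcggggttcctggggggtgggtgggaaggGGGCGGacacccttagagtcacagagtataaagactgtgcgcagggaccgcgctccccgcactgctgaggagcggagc
Atp1b3: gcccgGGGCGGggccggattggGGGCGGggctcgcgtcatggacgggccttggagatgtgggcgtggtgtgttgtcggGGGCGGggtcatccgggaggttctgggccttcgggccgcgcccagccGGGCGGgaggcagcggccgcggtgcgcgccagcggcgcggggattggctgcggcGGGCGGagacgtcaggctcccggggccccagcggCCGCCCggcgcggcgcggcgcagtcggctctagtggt
Atp2a3: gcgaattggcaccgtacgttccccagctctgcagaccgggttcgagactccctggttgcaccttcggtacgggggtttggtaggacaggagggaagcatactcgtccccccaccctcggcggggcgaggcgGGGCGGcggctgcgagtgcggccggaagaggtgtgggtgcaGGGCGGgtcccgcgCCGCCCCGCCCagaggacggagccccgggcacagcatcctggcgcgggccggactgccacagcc
Atp2a2: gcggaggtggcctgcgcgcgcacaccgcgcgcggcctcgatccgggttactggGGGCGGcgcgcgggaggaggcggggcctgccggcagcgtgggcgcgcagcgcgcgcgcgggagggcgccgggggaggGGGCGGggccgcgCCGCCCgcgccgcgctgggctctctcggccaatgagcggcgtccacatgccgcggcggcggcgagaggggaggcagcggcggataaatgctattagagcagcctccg

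Of the members, 7 matched an entry in the promoter table, and Atp1b1 had none. At least 1 GC box lay in 6 of the 7 windows, against 30.5% of all 33469 rat windows of this length. Atp1b2, which fell, had 2 GC boxes, and Atp1b3 had 6. For the SERCA pair, Atp2a3, which fell, had 4 GC boxes, of which 1 pair overlaps by 1 base, and Atp2a2 had 3. The window of Atp2b4 was the one without a GC box. GC content was 58% for Atp1b2 and 79.6% for Atp1b3, 72.4% for Atp2a3 and 80% for Atp2a2, against a median of 51.2% over all windows. The core of the hypoxia response element (ACGTG or GCGTG, either strand) occurred in 2 of the 7 windows, 189 bases upstream of the start of Atp1b3 and 162 bases upstream of that of Atp2a2, against 36.7% of all windows. Neither gene with this core passed the test on its brightest probe set. Motif matches are a description of these letters, and binding was not measured.

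Among the beta subunits of the sodium/potassium pump, Atp1b2 showed the largest change. Atp1b2 encodes beta2, first described in rodents as the adhesion molecule on glia, which is abundant in astrocytes. Its values were 7.26, 6.76 and 6.67 in ischemic rats 64, 65 and 66, against 8.91, 9.57 and 9.33 in control rats 63, 68 and 69. All ischemic rats lay below all controls, and only 1 of the 3 ischemic arrays exceeded the low-signal threshold of 7.16, against all 3 control arrays. The group means were 6.90 ± 0.313 in ischemic rats and 9.27 ± 0.334 in controls (SD, n = 3 each). Atp1b2 fell by 2.37 on the log2 scale (SE 0.22, 95% confidence interval -2.87 to -1.87, limma adjusted p = 0.000379), or a 5.18-fold lower signal. The fold of Atp1b2 thus rests on ischemic values around that threshold.

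Atp1b1 encodes beta1, the widely expressed beta subunit. Its values were 12.08, 11.97 and 11.81 in ischemic rats 64, 65 and 66, against 12.52, 12.79 and 12.97 in control rats 63, 68 and 69. The groups did not overlap, and their means were 11.95 ± 0.133 in ischemic rats and 12.76 ± 0.227 in controls (SD, n = 3 each). Atp1b1 fell by 0.80 on the log2 scale (SE 0.16, interval -1.16 to -0.45, adjusted p = 0.00506), a 1.75-fold lower signal. The call of Atp1b1 was lost without ischemic rat 65 (adjusted p = 0.0224), ischemic rat 66 (0.0220), control rat 68 (0.0189) or control rat 69 (0.0184), with log2 fold changes of -0.93 to -0.70 over all single rats left out.

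Atp1b3, which encodes beta3, did not pass the test. Its values were 12.29, 12.39 and 12.47 in ischemic rats, against 12.08, 12.39 and 12.27 in controls. Control rat 68 lay within the ischemic range. The log2 fold change of 0.13 had an interval of -0.18 to 0.44 (SE 0.14, adjusted p = 0.458), and it was -0.30 with ribosomal centring. That interval, as deposited, does not reach the log2 fold changes of Atp1b1 or Atp1b2.

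**Figure D1:**
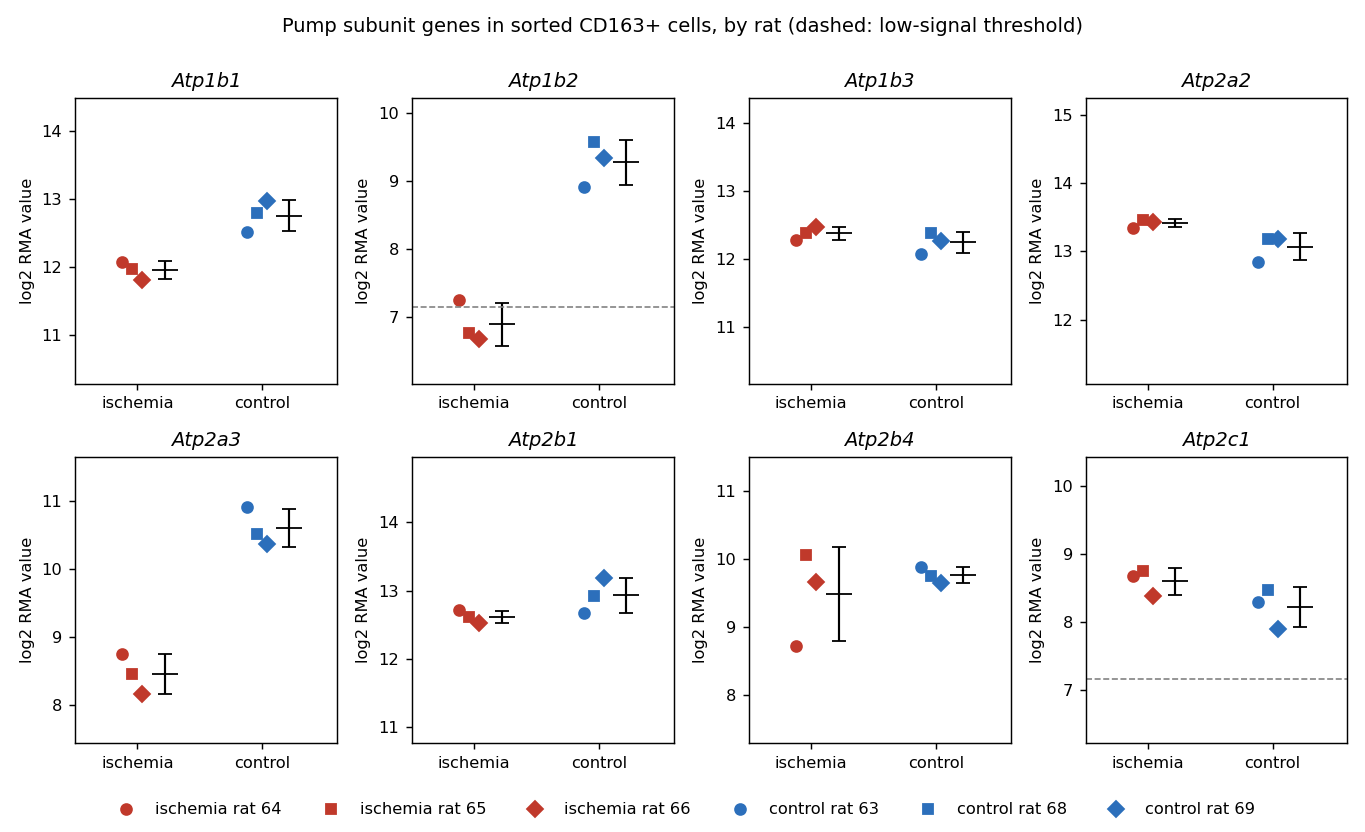
Log2 RMA value (y axis) of each pump gene in ischemic rats (left, red) and control rats (right, blue). Each symbol is 1 rat, the horizontal line and bar are the group mean ± SD (n = 3), the dashed line is the low-signal threshold of 7.16 where it falls in range, and all panels span the same number of log2 units. Atp1b1, Atp1b2 and Atp2a3 lie lower in all ischemic rats than in any control, and Atp2a2 lies higher.

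Of the SERCA pumps, Atp2a3 fell and Atp2a2 did not pass the test on its brightest probe set. Atp2a3 encodes SERCA3, an isoform known from platelets, lymphocytes and some epithelia. Its values were 8.75, 8.46 and 8.17 in ischemic rats 64, 65 and 66, against 10.91, 10.52 and 10.37 in control rats 63, 68 and 69. Every ischemic rat was lower than every control, and all 6 arrays exceeded the low-signal threshold. The means were 8.46 ± 0.289 in ischemic rats and 10.60 ± 0.279 in controls (SD, n = 3 each). Atp2a3 fell by 2.14 on the log2 scale (SE 0.20, interval -2.60 to -1.68, adjusted p = 0.000399), a 4.40-fold lower signal. Without any single rat, its fall ranged between 1.98 and 2.28 and stayed past the test.

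Atp2a2 encodes SERCA2, the isoform found in nearly all cells. On its brightest probe set the values were 13.35, 13.47 and 13.44 in ischemic rats 64, 65 and 66, against 12.85, 13.19 and 13.18 in control rats 63, 68 and 69. Ischemic rats lay above all controls without overlap, as did those of 35.7% of all genes tested, whereas the groups of 19.9% did not overlap in the lower direction. The log2 fold change of Atp2a2 was 0.35 (SE 0.14, interval 0.026 to 0.67), which did not pass the test (adjusted p = 0.0792), and it was -0.087 with ribosomal centring and -0.014 with the mean of all probe sets.

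Atp2a2 is also read by 4 other probe sets, and these did not move together. Probe set 1391771_at had 10.79, 10.54 and 10.30 in ischemic rats, against 11.35, 11.34 and 11.69 in controls. On that probe set all ischemic rats lay below all controls, and the signal fell by 0.92 (SE 0.17, interval -1.31 to -0.52, limma adjusted p = 0.00443 over 14089 probe sets). The log2 fold change was -0.054 for 1398862_at (adjusted p = 0.802) and 0.12 for 1369065_a_at (adjusted p = 0.606), with overlapping groups on both. The remaining probe set, 1375164_at, was below the low-signal threshold on all 6 arrays. Log2 fold changes of the 4 Atp2a2 probe sets tested thus spanned 1.26, a spread reached or passed by 71 of the 2955 genes with several probe sets tested (2.40%), against a median spread of 0.26. The call on 1391771_at was lost without ischemic rat 65 or 66 or without any 1 of the controls (adjusted p 0.0118 to 0.0202), with log2 fold changes of -1.04 to -0.79 over all single rats left out. Which SERCA2 transcripts each probe set reads is not given in the sources used here, so whether the transcripts differ in their change was not tested.

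Of the plasma membrane pumps, neither passed the test. Atp2b1, which encodes PMCA1, the isoform present in most cells, had 12.71, 12.61 and 12.53 in ischemic rats, against 12.68, 12.92 and 13.19 in controls. The groups overlapped through control rat 63, and the log2 fold change was -0.31 (SE 0.16, interval -0.67 to 0.049, adjusted p = 0.145). It was -0.18 without control rat 69 and -0.44 without control rat 63 (adjusted p = 0.387 and 0.0486), -0.75 with ribosomal centring (0.0162) and -0.47 with quantile normalization repeated (0.0148), and did not pass in any of these. Its other probe sets gave -0.041 and -0.071 (adjusted p = 0.834 and 0.707).

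Atp2b4 encodes PMCA4, which is known from red cells and many other tissues. Its values were 8.73, 10.06 and 9.67 in ischemic rats 64, 65 and 66, against 9.89, 9.76 and 9.65 in controls. Ischemic rat 64 lay below all other rats and ischemic rat 65 above them. The log2 fold change of Atp2b4 was -0.28 (SE 0.30, interval -0.98 to 0.42, adjusted p = 0.488), and it was 0.10 without ischemic rat 64. With an SD of 0.685 in ischemic rats and 0.118 in controls, Atp2b4 was the least precisely measured member.

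Atp2c1, which encodes SPCA1, the calcium and manganese pump of the Golgi, had the largest positive log2 fold change of the members. Its values were 8.67, 8.75 and 8.38 in ischemic rats, against 8.29, 8.47 and 7.89 in controls. Ischemic rat 66 lay below control rat 68, and the log2 fold change of 0.38 did not pass the test (SE 0.18, interval -0.039 to 0.80, adjusted p = 0.128) and was -0.053 with ribosomal centring. Its 2 dimmer probe sets went opposite ways, with 0.86 on 1371134_at (SE 0.25, adjusted p = 0.0278, all ischemic rats above all controls) and -0.47 on 1377386_at (SE 0.22, adjusted p = 0.126). On 1371134_at none of the 3 control arrays exceeded the low-signal threshold.

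Over all 19 probe sets of the members, 18 passed the filter. Of these, 7 fell, none rose and 11 did not pass the test, against 6.08% lower and 15.1% higher over all 14089 probe sets tested. Both probe sets of each gene that fell went the same way. The second probe set of Atp1b2, 1379906_at, fell by 2.12 (adjusted p = 0.000499), that of Atp1b1, 1386937_at, by 0.91 (adjusted p = 0.00418) and that of Atp2a3, 1371165_a_at, by 1.41 (adjusted p = 0.00202). On 1379906_at none of the 3 ischemic arrays exceeded the low-signal threshold, against all 3 control arrays, so that it passed the filter through the controls and its fall is read against background. The call of 1386937_at was lost without ischemic rat 65 (adjusted p = 0.0203), ischemic rat 66 (0.0170), control rat 68 (0.0176) or control rat 69 (0.0171), and that of 1371165_a_at without control rat 68 (0.0108). The seventh was the Atp2a2 probe set described above.

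**Figure D2:**
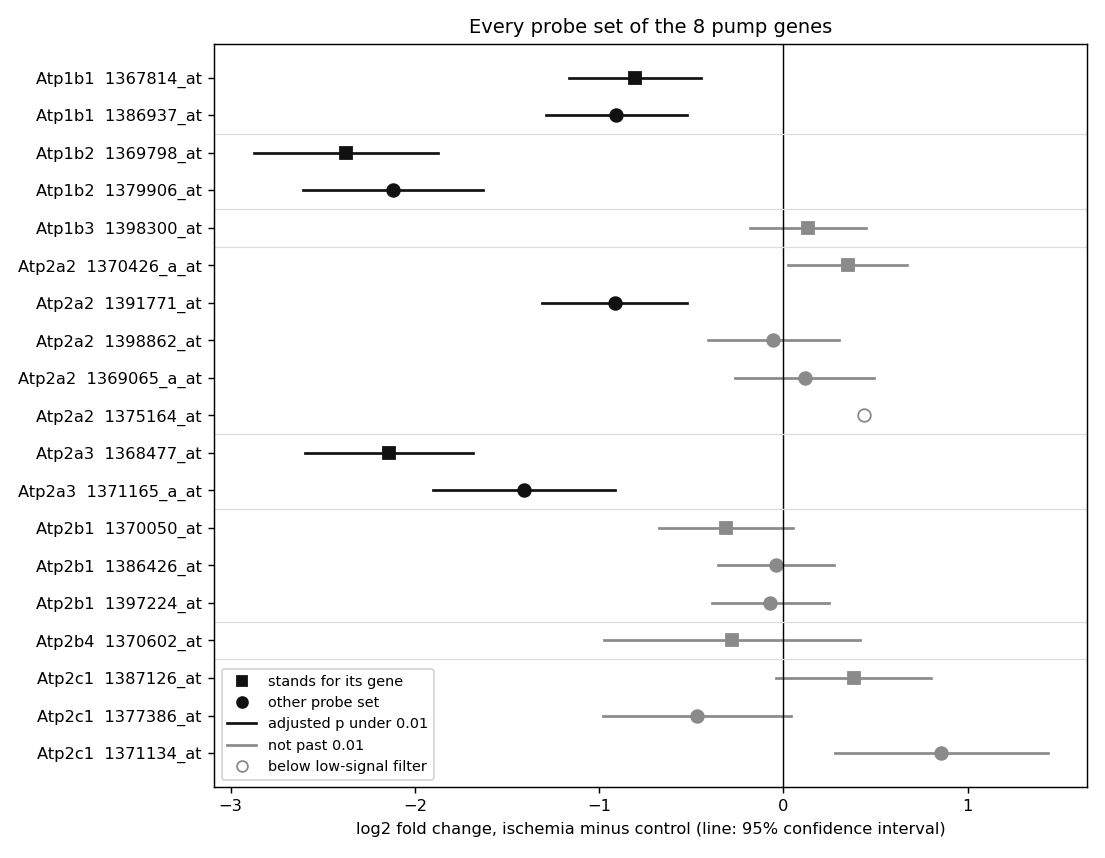
Log2 fold change, ischemia minus control (x axis), of each of the 19 probe sets of the pump genes, with lines for the 95% confidence interval. Squares are the probe sets that stand for their gene, and black marks an adjusted p under 0.01; both probe sets of Atp1b1, of Atp1b2 and of Atp2a3 lie left of 0, while those of Atp2a2 lie on both sides.

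Changes of related isoforms were compared within each rat, as the log2 difference between 2 genes. For Atp1b2 minus Atp1b3 this difference shifted by -2.51 (SE 0.25) after ischemia, and for Atp1b1 minus Atp1b3 by -0.94 (SE 0.16). For Atp1b1 minus Atp1b2 it shifted by 1.57 (SE 0.18). The shift was 2.49 (SE 0.33) for Atp2a2 minus Atp2a3, or 1.76 with the mean of all probe sets of a gene. In these 4 pairs the ischemic and control rats did not overlap, and the exact two-sided permutation test gave p = 0.1, the smallest that 3 rats against 3 allow (adjusted p = 0.125 over the 5 pairs compared). For Atp2b1 minus Atp2b4 the shift was -0.035 (SE 0.49, exact permutation p = 1), and with that error no difference in the change of the plasma membrane pumps was detectable.

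By the thresholds of the study's methods, an adjusted p under 0.01 together with a log2 fold change beyond 2, 2 members passed, Atp1b2 and Atp2a3, both lower. By that rule 0.584% of all genes, 58 in number, were lower. The paper reports many more lower genes at these thresholds, after filters whose cut-offs it does not state. Without the fold limit, 595 genes were lower here. The reason for the gap was not tested.

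The genes whose values followed the members most closely over the 6 arrays are given as a description. For Atp1b2, the member with the largest fall, these were Cd28 (Pearson r = 0.999), Tbc1d17 (0.998) and Ptpra (0.998), and for Atp2c1, the member with the largest positive change, Eif4ebp3 (0.992), Lrch3 (0.984) and Armc8 (0.980). All 6 arrays were used in each, both groups together, so that any gene with a difference between the groups like that of Atp1b2 has a high value.

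The 6 lists of related genes held 108 genes tested, of which 18 rose and 5 fell, against 16.8% and 5.99% over all genes. Most of the other pump subunits and pump regulators did not pass the test: of 13 tested, 3 rose and 1 fell, with a median log2 fold change of -0.06. Fxyd5, which encodes dysadherin, a small membrane protein that associates with the sodium/potassium pump, had 11.14, 11.43 and 11.43 in ischemic rats, against 10.00, 9.83 and 9.69 in controls. Its groups did not overlap, and Fxyd5 rose by 1.49 (SE 0.15, adjusted p = 0.000459). Fxyd2, the gamma subunit of the pump, known from the kidney, had 10.46, 10.10 and 9.48 in ischemic rats, against 11.09, 11.69 and 11.70 in controls. The Fxyd2 groups were separate as well, and it fell by 1.48 (SE 0.27, adjusted p = 0.00419), a call lost without ischemic rat 65 (adjusted p = 0.0146), control rat 68 (0.0199) or control rat 69 (0.0169). Nkain1, whose product interacts with the pump's beta1 subunit, rose by 2.04 (SE 0.39, adjusted p = 0.00483), although none of its 3 control arrays exceeded the low-signal threshold, and of the analyses without 1 rat, only that without ischemic rat 64 kept the call (adjusted p 0.0117 to 0.0231 in the others). Tmem165, a Golgi protein of manganese and calcium balance, rose by 0.96 (SE 0.14, adjusted p = 0.00145), a call lost with ribosomal centring (0.53, adjusted p = 0.117). Nptn, the neuroplastin that accompanies PMCA pumps, gave 0.34 (adjusted p = 0.0817) and Tmco1, a calcium release channel of the endoplasmic reticulum, gave -0.06 (adjusted p = 0.744).

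Of the other P-type ATPases, 1 of 12 rose and none fell (median 0.06). At an adjusted p under 0.01 this was Atp8b4, a putative phospholipid flippase, with 10.64, 11.10 and 11.31 in ischemic rats, against 9.71, 8.73 and 8.97 in controls. Its groups did not overlap, and it rose by 1.89 (SE 0.27, adjusted p = 0.00167). Tmem30a, the partner subunit of flippases, gave -0.07 (adjusted p = 0.697) and the copper pump Atp7a gave 0.06 (adjusted p = 0.705).

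In the list of calcium entry and release, 3 of 21 genes rose and 1 fell (median 0.19). Trpv4, a plasma membrane cation channel, had 7.04, 6.98 and 6.77 in ischemic rats, against 8.62, 9.20 and 8.75 in controls. It fell by 1.93 (SE 0.18, adjusted p = 0.000379), and none of its 3 ischemic arrays exceeded the low-signal threshold. Trpv2, a related channel found in macrophages, rose by 1.41 (SE 0.24, adjusted p = 0.00335). Stim2, a calcium sensor of the endoplasmic reticulum, rose by 0.70 (SE 0.16, adjusted p = 0.00900) and the mechanosensitive channel Piezo1 by 0.65 (SE 0.13, adjusted p = 0.00511). These 3 rises did not pass the test with ribosomal centring (adjusted p = 0.0315 for Trpv2, 0.378 for Stim2 and 0.454 for Piezo1). The call of Trpv2 was also lost without ischemic rat 65 or control rat 68 or 69 (adjusted p 0.0110 to 0.0155), that of Stim2 without any rat but control rat 68 (0.0125 to 0.0440) and that of Piezo1 without any rat but ischemic rat 64 (0.0107 to 0.0297). Trpc6, a further channel, gave 0.82 (adjusted p = 0.129) and P2rx7, the ATP-gated channel of macrophages, gave 0.61 (adjusted p = 0.0151).

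For calcium exchange and mitochondrial uptake, 3 of 10 genes rose and none fell (median 0.31). Mcub, the inhibitory subunit of the mitochondrial calcium uniporter, rose by 2.03 (SE 0.46, adjusted p = 0.00975), a call that held in no analysis without 1 rat other than that without ischemic rat 64 (adjusted p 0.0151 to 0.0351 in the others) and not with ribosomal centring (0.0130). It was also lost without the low-signal filter (0.0211), with median centring (0.0114), with quantile normalization repeated (0.0204) and with robust empirical Bayes (0.0202). Letm1, a mitochondrial cation exchanger, rose by 0.69 (adjusted p = 0.00519) and Slc8b1, the mitochondrial sodium/calcium exchanger, by 0.62 (adjusted p = 0.00688), both not past the test with ribosomal centring (adjusted p = 0.393 and 0.506). Letm1 also lost its call without ischemic rat 65 or 66 or control rat 63 or 69 (adjusted p 0.0155 to 0.0287), and Slc8b1 without any 1 of the 6 rats (0.0109 to 0.0344). The uniporter regulators Smdt1 (0.25, adjusted p = 0.243) and Micu2 (0.12, adjusted p = 0.485), did not pass.

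Calcium binding and signalling genes showed 5 rises and no fall among 21 tested (median 0.08). Calu, calumenin, a calcium-binding protein of the secretory pathway and a modulator of SERCA2, had 9.81, 10.37 and 10.47 in ischemic rats, against 8.54, 8.80 and 8.77 in controls. The Calu groups did not overlap, and it rose by 1.51 (SE 0.19, adjusted p = 0.00105). Camkk2, a calcium/calmodulin-dependent kinase kinase, rose by 1.21 (adjusted p = 0.00431), Rcn1, reticulocalbin of the endoplasmic reticulum, by 1.05 (adjusted p = 0.00351) and Calr, the calcium-storing chaperone calreticulin, by 0.74 (adjusted p = 0.00647). With ribosomal centring these did not pass (adjusted p = 0.0299 for Camkk2, 0.0323 for Rcn1 and 0.262 for Calr). Without 1 rat, the call of Calr held only without ischemic rat 64 (adjusted p 0.0130 to 0.0331 in the others), that of Camkk2 was lost without ischemic rat 65 or any 1 of the controls (0.0103 to 0.0188) and that of Rcn1 without ischemic rat 65 or 66 (0.0120 and 0.0137). Hspa5, the chaperone BiP, gave 0.32 (adjusted p = 0.327), and Sri, sorcin, gave -0.10 (adjusted p = 0.654).

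Among genes of sodium, potassium, chloride and proton transport, 3 of 31 rose and 3 fell (median 0.24). Kcnn4, the calcium-activated potassium channel of blood cells, had 9.61, 10.78 and 11.07 in ischemic rats, against 7.98, 7.63 and 7.63 in controls. Kcna3, the voltage-gated potassium channel of lymphocytes and macrophages, had 10.83, 10.65 and 10.81 in ischemic rats, against 8.23, 7.84 and 8.36 in controls. Both were separate between the groups and were the largest rises of the related lists, with 2.74 for Kcnn4 (SE 0.34, adjusted p = 0.00102) and 2.62 for Kcna3 (SE 0.16, adjusted p = 0.000103). Slc9a9, an endosomal sodium/proton exchanger, fell by 1.97 (SE 0.28, adjusted p = 0.00145) and the inward rectifier Kcnj2 by 1.59 (SE 0.31, adjusted p = 0.00547). The call of Kcnj2 did not hold without ischemic rat 65 or 66 or control rat 68 or 69 (adjusted p 0.0146 to 0.0222). Sgk1, a kinase that raises sodium transport, gave 0.55 (adjusted p = 0.129) and Clic4, an intracellular chloride channel protein, gave 0.81 (adjusted p = 0.0173). Over the 6 lists, the split of calls turned round with ribosomal centring, to 6 higher and 10 lower. That centring shifts control rat 63 most, as its ribosomal mean was 12.52, against 13.15 to 13.42 in the other rats. How far the turn rests on that rat was not tested.

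**Figure D3:**
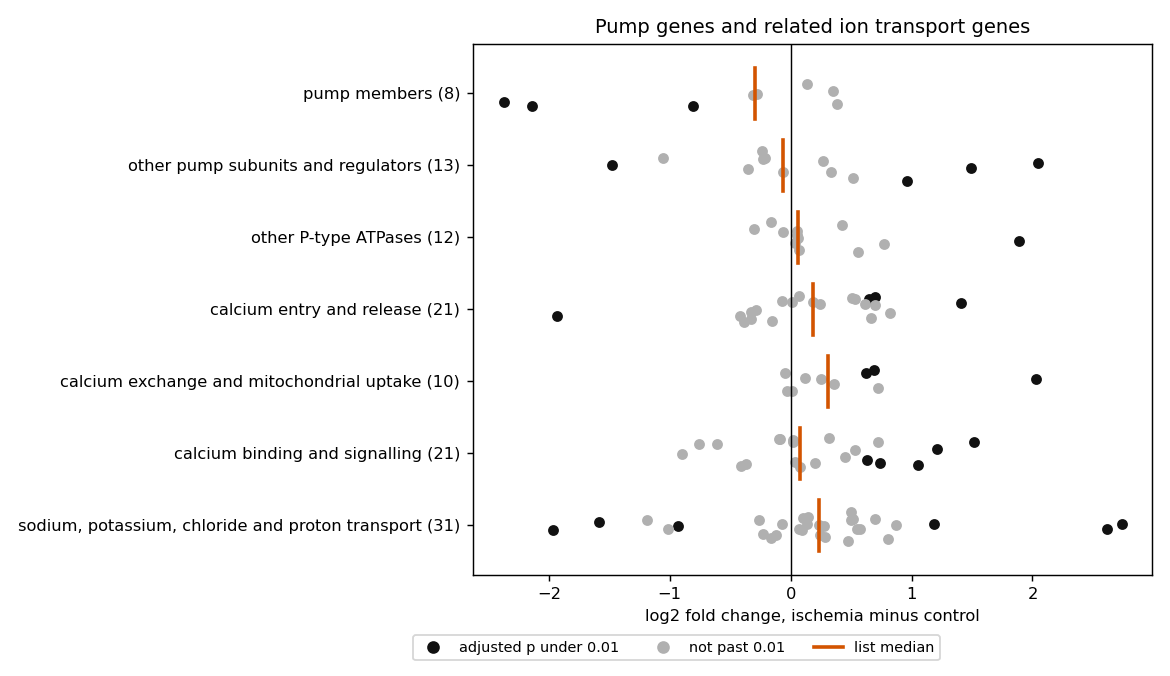
Log2 fold change, ischemia minus control (x axis), of each gene tested in the pump set and in 6 lists of related genes (rows, number tested in brackets). Black points have an adjusted p under 0.01 and the orange bars are list medians, which run from -0.30 for the pump genes to 0.31 for calcium exchange and mitochondrial uptake.

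Cell type markers were read beside these values, since a mixed sort gives 1 value per rat. In bulk RNA, fewer cells of a type and less RNA per cell cannot be told apart. Markers of the sorted cells were high in all rats, with Cd163 at 13.84 ± 0.401 in ischemic rats and 13.30 ± 0.622 in controls and Mrc1 at 14.04 ± 0.363 in ischemic rats and 14.22 ± 0.640 in controls (SD, n = 3 each), and 1 of 9 markers of that list rose (Itgam, which encodes CD11b, by 2.24, adjusted p = 0.000104). Monocyte markers rose in 5 of 6 (median 3.39), or in 3 without ischemic rat 65, ischemic rat 66 or control rat 68. Their summed level, as log2 of summed linear values, was 14.66 to 15.79 in ischemic rats, against 12.47 to 13.40 in controls. The monocyte marker that did not pass was Ccr2, at 0.43 (limma adjusted p = 0.311) with overlapping groups. Of those that rose, the paper lists Vcan and Fn1 among the genes most up-regulated in the CD163+ macrophages. Granulocyte markers rose in 3 of 6 (median 2.52), Lcn2, Mmp9 and S100a8, with summed levels of 10.84 to 11.998 in ischemic rats, against 9.93 to 10.30 in controls. None of the control arrays exceeded the low-signal threshold for these 3 granulocyte genes or for the monocyte marker Vcan, and Mmp9 lost its call without ischemic rat 66 or any 1 of the controls (adjusted p 0.0102 to 0.0231). The other granulocyte markers tested did not pass: S100a9 at 2.19 (adjusted p = 0.0119), Csf3r at 0.93 (0.0113) and Cxcr2 at -0.50 (0.179). Camp and Mmp8 were below the filter. In its purity check, the paper also reported a small share of granulocytes among the CD163+ cells sorted from ischemic tissue. By flow cytometry it found the CD163+ population at 16 h similar to that of controls, and it regards most of these cells as resident macrophages. The part of the monocyte and granulocyte lists in the falls of Atp1b1, Atp1b2 and Atp2a3 was not tested.

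Brain cell markers were also present. Oligodendrocyte markers fell in 3 of 10 (median -1.58), or in 1 (Mbp) without ischemic rat 65, control rat 63 or control rat 68, with summed levels of 12.11 to 12.86 in ischemic rats, against 13.32 to 14.51 in controls. Astrocyte markers, of interest beside Atp1b2, rose in 1 and fell in 1 of 8 (median -0.13), or in neither direction without ischemic rat 65 or 66 or control rat 68 or 69, with summed levels of 11.98 to 12.29 in ischemic rats, against 11.26 to 12.84 in controls, and a further 2, Aldh1l1 and Gjb6, were below the filter. Of the neuronal markers 5 were below the filter, and of the 5 tested 1 rose and 1 fell (median -0.02), with summed levels of 11.27 to 11.65 in ischemic rats, against 10.84 to 11.70 in controls. Lymphocyte markers, of interest beside Atp2a3, rose in 2 (Cd2 and Cd8a) and fell in 1 (Cd5) of 5 (median 0.34), with summed levels of 10.70 to 11.92 in ischemic rats, against 10.14 to 10.18 in controls. The paper names Cd8a among the immune response genes up-regulated in the CD163+ macrophages themselves. Cd3d (log2 fold change 0.34, adjusted p = 0.379) and Cd79b (-0.06, adjusted p = 0.736) did not pass the test. Cd3e, Cd3g, Ms4a1 and Nkg7 were below the filter. Without ischemic rat 65, control rat 63 or control rat 68 no lymphocyte marker passed the test. Cd8a also lost its call without control rat 69 (adjusted p = 0.0311) and Cd5 without ischemic rat 66 (0.0200). Cd8a had no control array above the low-signal threshold and Cd5 no ischemic array. Markers of red cells and platelets passed the test in none of 3 (median -0.39), with summed levels of 12.77 to 13.73 in ischemic rats, against 13.50 to 14.51 in controls. Most of that sum was Pf4, with means of 13.03 in ischemic rats and 13.96 in controls. Hbb had 9.24 and 9.64 and Itga2b 7.81 and 7.80, so the sum is mainly a reading of 1 gene. Among microglial markers 1 of 5 fell, or 2 without ischemic rat 64 or 66, with a list median of -0.13.

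Across rats, the deviation of Atp1b2 from the control mean was smallest in ischemic rat 64, at -2.02, and rats 65 and 66 had -2.51 and -2.60. Atp2a3 (-1.85, -2.14 and -2.43 for rats 64, 65 and 66) and Atp1b1 (-0.68, -0.79 and -0.94) had the same order of deviations. Median deviations in these rats were 2.24, 3.69 and 4.24 for monocyte markers and 1.36, 2.74 and 2.88 for granulocyte markers. For the sorted-cell markers they were -0.0005, -0.06 and -0.45. An order of 3 rats is a description, and its relation to the falls was not tested. Control rat 63 had the highest oligodendrocyte and astrocyte medians, 0.90 and 0.92 above the control mean. Its Atp1b2 value and its median of the sorted-cell markers (-0.38) were the lowest of the controls. Since its array stood apart as given above, these values are a description, and any relation between them was not tested. Without control rat 63, Atp1b2 fell by 2.55 (adjusted p = 0.00180), Atp2a3 by 1.98 (adjusted p = 0.00225) and Atp1b1 by 0.93 (adjusted p = 0.00548).

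**Figure D4:**
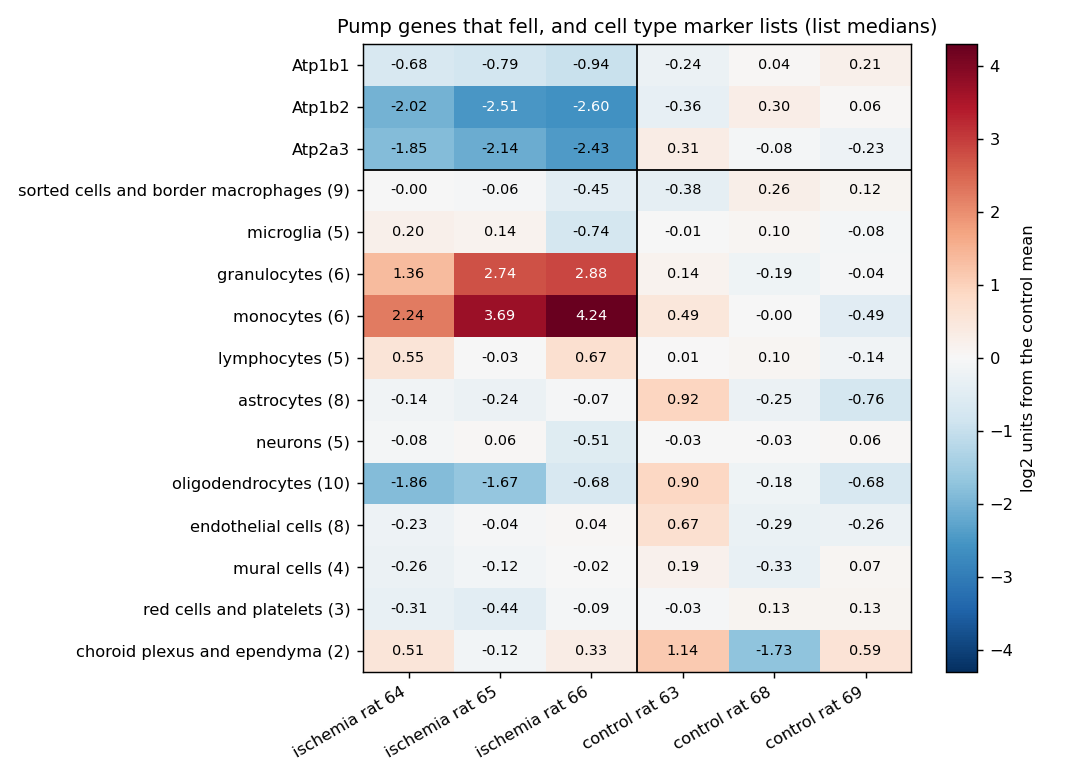
Deviation of each rat (columns, ischemic rats left) from the control mean, in log2 units, for the pump genes that fell (upper rows) and as medians of the cell type marker lists (lower rows, number of genes tested in brackets). Atp1b2 and Atp2a3 lie at -2.60 to -1.85 in ischemic rats. In these rats monocyte marker medians lie at 2.24 to 4.24, granulocyte medians at 1.36 to 2.88 and oligodendrocyte medians at -1.86 to -0.68.

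**Figure D5:**
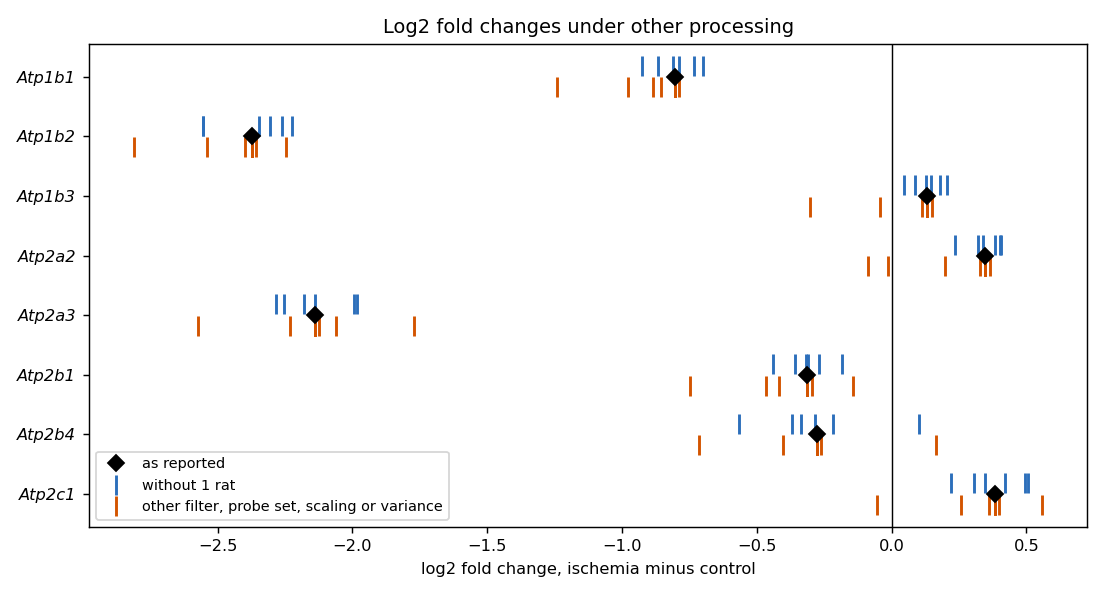
Log2 fold change, ischemia minus control (x axis), of each pump gene as reported (diamond), without 1 rat (blue ticks) and under another filter, choice of probe set, scaling or variance model (orange ticks). Atp1b1, Atp1b2 and Atp2a3 stay left of 0 throughout, and Atp1b3, Atp2a2, Atp2b4 and Atp2c1 cross it under at least 1 setting.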

How the data were processed

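Each array held RNA of CD11b+CD163+ cells sorted from the right hemisphere of 1 rat, labelled by 3′ amplification of low-input RNA and read on an Affymetrix rat genome array. The authors used RMA, which subtracts background, quantile-normalizes and combines the probes of a set, and the deposited values are its log2 values for 31099 probe sets. The submitters' processing notes name limma 3.18 and R 3.3.1. Of the probe sets, 57 were controls, 20832 had 1 gene symbol, 436 several and 9774 none, and 20764 of those with 1 symbol were found in a current rat annotation.

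Values were used as deposited. A gene was represented by its single-symbol probe set of highest mean and tested if 7.16, the 40th percentile over all non-control values, was exceeded on 3 or more arrays. Moderated linear models in limma 3.58.1 (lmFit, eBayes; R 4.3.3) gave ischemia minus control (two-sided, Benjamini-Hochberg over 9929 genes, or over 14089 probe sets where probe sets are read singly). Groups come from the labels, and each rat is 1 replicate. The code was tested on simulated data with known changes. Promoter windows and motifs were read from RefSeq (GRCr8).

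The members and the lists were chosen with earlier results of these data known. Named are all members, up to 4 genes of each related list past the test with the largest change, up to 2 of highest mean that did not pass, and the 3 genes most correlated with the members of largest rise and fall. Cell type markers are named where they bear on the sort. Alternatives covered the filters, the choice of probe set, array scaling, variance moderation, weights, thresholds and leaving out each rat.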

Additional observations from a re-analysis of the deposited data

How the results depend on the processing

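Atp1b1, Atp1b2 and Atp2a3 were lower under all 20 alternatives run for each of them, with log2 fold changes of -1.24 to -0.70, -2.81 to -2.22 and -2.57 to -1.77. Many of these alternatives could not change the sign. Thresholds, filters, the adjustment and variance moderation leave the log2 fold change as it is. With groups that do not overlap, neither leaving out a rat nor weighting arrays can reverse it. Only the mean of all probe sets, array centring and quantile normalization repeated could have done so. The count of members that fell was 3 in all but 5 of the alternatives that keep the threshold of 0.01 without a fold limit. It was 2 to 3 with 1 rat left out, and 0 with no empirical Bayes moderation in limma (adjusted p = 0.0344 for Atp1b1, 0.0171 for Atp1b2 and 0.0166 for Atp2a3). At an unadjusted p under 0.05, that fit had 3 members lower and 1 higher, where 4479 of all genes tested passed in either direction. With the low-variability filter added, 3 members remained (Atp1b1, Atp1b2 and Atp2a3) and their median was -2.14. Centring on ribosomal protein genes moved the median of the members to -0.73 and that of all genes to -0.33, against 0.10 as deposited. Without 1 rat, the median of the members ranged between -0.44 and -0.13. No member rose under any alternative.

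Members that did not pass the test changed sign under some settings. With ribosomal centring the log2 fold change was -0.087 for Atp2a2, -0.30 for Atp1b3, -0.053 for Atp2c1 and -0.32 for Atp2a2 probe set 1369065_a_at. With the mean of all probe sets it was -0.014 for Atp2a2, and Atp2b1 minus Atp2b4 shifted by 0.14. With quantile normalization repeated, Atp1b3 gave -0.044 and probe set 1369065_a_at gave -0.039. Atp2b4 gave 0.17 with array weights. Without 1 rat, log2 fold changes ranged between -0.57 (without ischemic rat 65) and 0.10 (without ischemic rat 64) for Atp2b4, between -0.19 and 0.051 (without control rat 69) for Atp2a2 probe set 1398862_at and between -0.098 and 0.061 (without control rat 69) for Atp2b1 probe set 1386426_at. The shift of Atp2b1 minus Atp2b4 then ranged between -0.46 and 0.26. With array weights the Atp2c1 probe set 1371134_at passed the test (adjusted p = 0.00836). In the related lists 34 genes rose and 10 fell at an adjusted p under 0.05, and 6 rose and 10 fell with ribosomal centring, against 18 and 5. Without the low-signal filter, calls of named related and marker genes were also lost. They included Nkain1 (adjusted p = 0.0113), Stim2 (0.0126), Kcnj2 (0.0120), Mmp9 (0.0115) and Cd8a (0.0208). With quantile normalization repeated, Stim2 (0.0113) and Cd8a (0.0123) lost theirs. The cause of these changes was not tested. No paired analysis was possible because the rat numbers of the groups are not shared. Signal near background limits the folds of Atp1b2 (both probe sets), Trpv4, Nkain1 and the markers Lcn2, Mmp9, S100a8, Vcan, Cd8a and Cd5.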
